A study of Mus musculus with 7 samples.

Results

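Genes of T-cell recirculation, memory and tissue residency (S1pr1, Klf2, Ccr7, Tcf7, Lef1, Il7r, Dapl1, Itgae and Cd69; 9 of the 32285 genes counted) were followed in the lymphocytes of mouse brain tumours by droplet single-cell RNA sequencing. The members were taken by gene symbol and were selected on measured values, the levels of Dapl1 and S1pr1 in BP and IgG T cells, so the difference between those groups is given for all 9 genes as a description and without a p-value. The tumours grew in wild-type C57BL/6 hosts of 7 to 10 weeks from NSCG-mCherry, a mouse glioma cell line positive for EGFRvIII and null for Arf/Ink4a, and were collected at about day 14. All groups share this line and host. The untreated group (UT) was 1 library. The IgG group was 2 libraries whose hosts received IgG2b isotype antibody (10 mg/kg); whether either also had the oral diluent is not stated. The BP group was 2 libraries after combined treatment with the VEGF-blocking antibody B20 (5 mg/kg) and anti-PD-L1 (10 mg/kg). The BPI group was 1 library with IPI-145 (10 mg/kg daily by gavage), an inhibitor of the leukocyte PI3-kinases, added to BP. The CD40 group was 1 library from mice given 2 doses of 100 µg of an agonist antibody against CD40, and whether they also had a dendritic-cell vaccine is not stated. The IgG, BP and BPI groups had 3 rounds of treatment, and no number of rounds is listed for CD40. Each library pooled the tumours of at least 2 mice, so the spread between mice was not measured, and p-values measure the spread between libraries only.

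Naive and central-memory T cells circulate between blood and lymphoid organs, and the 9 genes mark steps of that traffic. S1pr1 encodes the receptor for sphingosine 1-phosphate that lets T cells leave a tissue, and Klf2 a zinc-finger factor known to switch on S1pr1. Ccr7 is the receptor for the lymph-node chemokines Ccl19 and Ccl21. Tcf7 and Lef1 encode the related HMG-box factors TCF1 and LEF1 of naive and memory-like T cells, Il7r the alpha chain of the receptor for the survival cytokine IL-7, and Dapl1 (death-associated protein-like 1) is a transcript of naive and memory-like T cells. On the side of residency, Itgae encodes the alpha E integrin (CD103), which binds E-cadherin, and CD69 is an early activation protein that holds the S1P receptor inside the cell.

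Promoter windows are shown for the factors Klf2, Tcf7 and Lef1, because Klf2 and Tcf7 went with a split of T cells that used Lef1, and for Dapl1, the member with the largest difference from IgG in BP, BPI and CD40. The windows run from 250 bases before to 50 bases after a transcript start and come from RefSeq on GRCm38.p6. The table held 5 of the 9 members (Klf2, Tcf7, Lef1, Il7r and Dapl1). Capitals mark 2 motif cores searched on both strands, CACCC (bound by KLF factors, read as GGGTG on the other strand) and CTTTGA (bound by TCF/LEF factors, read as TCAAAG), which do not overlap each other here. Of all 32851 windows of 300 bases, 57.5% held CACCC and 16.0% held CTTTGA. The Klf2 window (chr8:72318812-72319111, + strand) held 1 CACCC core, the first Tcf7 window (chr11:52282965-52283264, - strand) held 2, and the downstream Lef1 start (chr3:131156044-131156343, + strand) held 1 CACCC and 2 CTTTGA cores. The Dapl1 window (chr2:59484403-59484702, + strand) held neither, nor did that of Il7r. Of the 4 Lef1 windows, the one shown was picked because it alone held CTTTGA. Each line is 5′ to 3′ on the gene's strand.
Klf2: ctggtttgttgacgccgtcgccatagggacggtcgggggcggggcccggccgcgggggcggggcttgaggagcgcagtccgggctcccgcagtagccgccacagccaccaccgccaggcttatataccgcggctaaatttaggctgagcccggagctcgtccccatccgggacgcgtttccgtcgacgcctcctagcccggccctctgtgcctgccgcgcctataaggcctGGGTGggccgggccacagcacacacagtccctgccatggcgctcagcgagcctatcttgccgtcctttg
Tcf7: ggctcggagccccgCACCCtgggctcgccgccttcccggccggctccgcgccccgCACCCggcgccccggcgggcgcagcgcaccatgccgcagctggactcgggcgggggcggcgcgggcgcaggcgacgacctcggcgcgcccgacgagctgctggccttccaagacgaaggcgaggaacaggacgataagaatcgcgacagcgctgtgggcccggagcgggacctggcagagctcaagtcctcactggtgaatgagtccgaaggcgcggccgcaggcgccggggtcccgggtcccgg
Lef1, downstream start: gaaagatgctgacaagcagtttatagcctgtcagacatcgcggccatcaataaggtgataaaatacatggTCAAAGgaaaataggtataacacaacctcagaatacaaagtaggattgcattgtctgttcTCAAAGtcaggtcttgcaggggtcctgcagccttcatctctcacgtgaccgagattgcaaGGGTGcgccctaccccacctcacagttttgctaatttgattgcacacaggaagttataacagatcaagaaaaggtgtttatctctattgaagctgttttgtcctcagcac
Dapl1: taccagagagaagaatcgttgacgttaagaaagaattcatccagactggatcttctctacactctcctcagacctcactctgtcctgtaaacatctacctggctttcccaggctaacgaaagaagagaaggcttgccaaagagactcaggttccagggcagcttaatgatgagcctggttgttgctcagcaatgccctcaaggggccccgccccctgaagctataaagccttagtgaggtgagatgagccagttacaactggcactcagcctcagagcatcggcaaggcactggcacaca
A match describes letters only, and binding was not measured.

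After filtering, 48588 cells were kept, of which 2617 were T-like (273 in UT, 39 and 58 in IgG 1 and IgG 2, 1296 and 227 in BP 1 and BP 2, 595 in BPI and 129 in CD40) and 1125 were NK-like. All 13 T-cell markers were raised in the T-like cluster, and 94.9% to 98.6% of its cells per library held at least 2 UMIs (unique molecules counted) of CD3 or T-cell receptor genes. The NK-like cluster had all 11 NK markers raised and Ncr1 in 66.0% to 95.2% of its cells, but 55.8% to 93.7% of its cells also held 2 such T-cell UMIs. The libraries held 68997476 to 186793886 UMIs in total, and the median T-like cell held 2391 (BPI) to 6082 UMIs (BP 1). The small IgG sets rest on 122092 and 221848 UMIs, so that 3 UMIs, the limit that a count of 0 allows, correspond to 24.6 and 13.5 CPM (UMIs scaled to the total UMIs of the same cells in that library) in IgG 1 and IgG 2. Library names run on consecutively in IgG 1, BP 2 and BPI and again in CD40 and IgG 2, and UT and BP 1 were named apart; the UT library also lists fewer barcodes (713553 against 1487060 to 2310016). UT shared 0 to 3 barcodes of filtered cells with each other library, while the other pairs shared 10 to 26. Free RNA made up an estimated 2.34% to 6.23% of T-like UMIs, and at most 8.28% of any member's T-like UMIs (Klf2 in BP 1). Intervals are exact 95% intervals (Poisson for counts, Clopper-Pearson for shares) and cover counting error only.

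Among T-like cells the exit receptor and its factor stood highest in the IgG libraries. S1pr1 (GRCm38 chromosome 3, 115710433 to 115715072) was at 98.3 CPM in IgG 1 (95% interval 50.8 to 172) and 261 in IgG 2, against 22.2 and 68.9 in BP, 42.6 in BPI, 70.5 in CD40 and 12.3 in UT. Both IgG libraries lay above the other 5, yet the interval of IgG 1 overlaps those of BP 2 (51.3 to 90.6) and CD40 (52.8 to 92.2). Klf2 (chromosome 8, 72319033 to 72321656) was at 319 and 356 CPM in IgG, 51.3 and 205 in BP, 189 in BPI, 140 in CD40 and 70.4 in UT, again with IgG on top. Ccr7 (chromosome 11, 99144196 to 99155077) was at 49.1 and 117 CPM in IgG, 44.6 and 39.2 in BP, 37.2 in BPI, 42.5 in CD40 and 57.6 in UT, where IgG 2 alone stood apart. Cells with an S1pr1 UMI were 25.6% and 44.8% of IgG T-like cells, 12.2% and 14.5% in BP, 10.6% in BPI, 23.3% in CD40 and 7.33% in UT. In NK-like cells, at a median of 1892 to 4553 UMIs, that share was 0 to 1.14% per library. With every cell thinned to 1000 UMIs, cells with an S1pr1 UMI were 15.4% and 19.0% in IgG, 4.17% and 9.25% in BP, 4.2% in BPI, 8.53% in CD40 and 3.30% in UT.

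The memory factors and the IL-7 receptor were set apart mainly by one control library. Lef1 (chromosome 3, 131110471 to 131224356) was at 640 CPM in IgG 2 but 172 in IgG 1, which lay among BP 1 (178), BPI (137), BP 2 (120) and CD40 (266), with UT lowest at 68.4. Tcf7 (chromosome 11, 52252371 to 52283014) gave 270.5 CPM in IgG 2 and 57.3 in IgG 1, level with BP 1 (57.2) and below BP 2 (75.6) and CD40 (146), while BPI was at 41.5 and UT at 36.5. The IgG replicates thus differed more from each other in Lef1 and Tcf7 than IgG 1 did from either BP library. Il7r (chromosome 15, 9505788 to 9530176) was at 311 and 663 CPM in IgG, 251 and 184 in BP, 150.2 in BPI, 287 in CD40 and 159 in UT, so both IgG libraries were the highest, with IgG 1 close to CD40.

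Dapl1 (chromosome 2, 59484653 to 59505020) stood at 197 and 81.1 CPM in IgG against 17.1 and 10.8 in BP, 6.56 in BPI, 18.6 in CD40 and 18.0 in UT. The IgG counts are small. IgG 1 had 24 Dapl1 UMIs in 5 of 39 cells, 17 of them in 1 cell, and without that cell its level was 63.1 CPM. IgG 2 had 18 UMIs in 9 of 58 cells. Dapl1 UMIs were found in 0.178% of NK-like cells, against 1.68% (BPI) to 15.5% (IgG 2) of T-like cells.

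The residency genes did not share this order. Cd69 (chromosome 6, 129267325 to 129275436) was at 188 and 167 CPM in IgG, 118 and 439 in BP, 379 in BPI, 210.0 in CD40 and 133 in UT, so the BP libraries lay on either side of both IgG libraries. Itgae (chromosome 11, 73090583 to 73147446) ran from 6.01 CPM in BPI to 59.8 in CD40, with IgG at 32.8 and 13.5 from 4 and 3 UMIs.

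**Figure D1:**
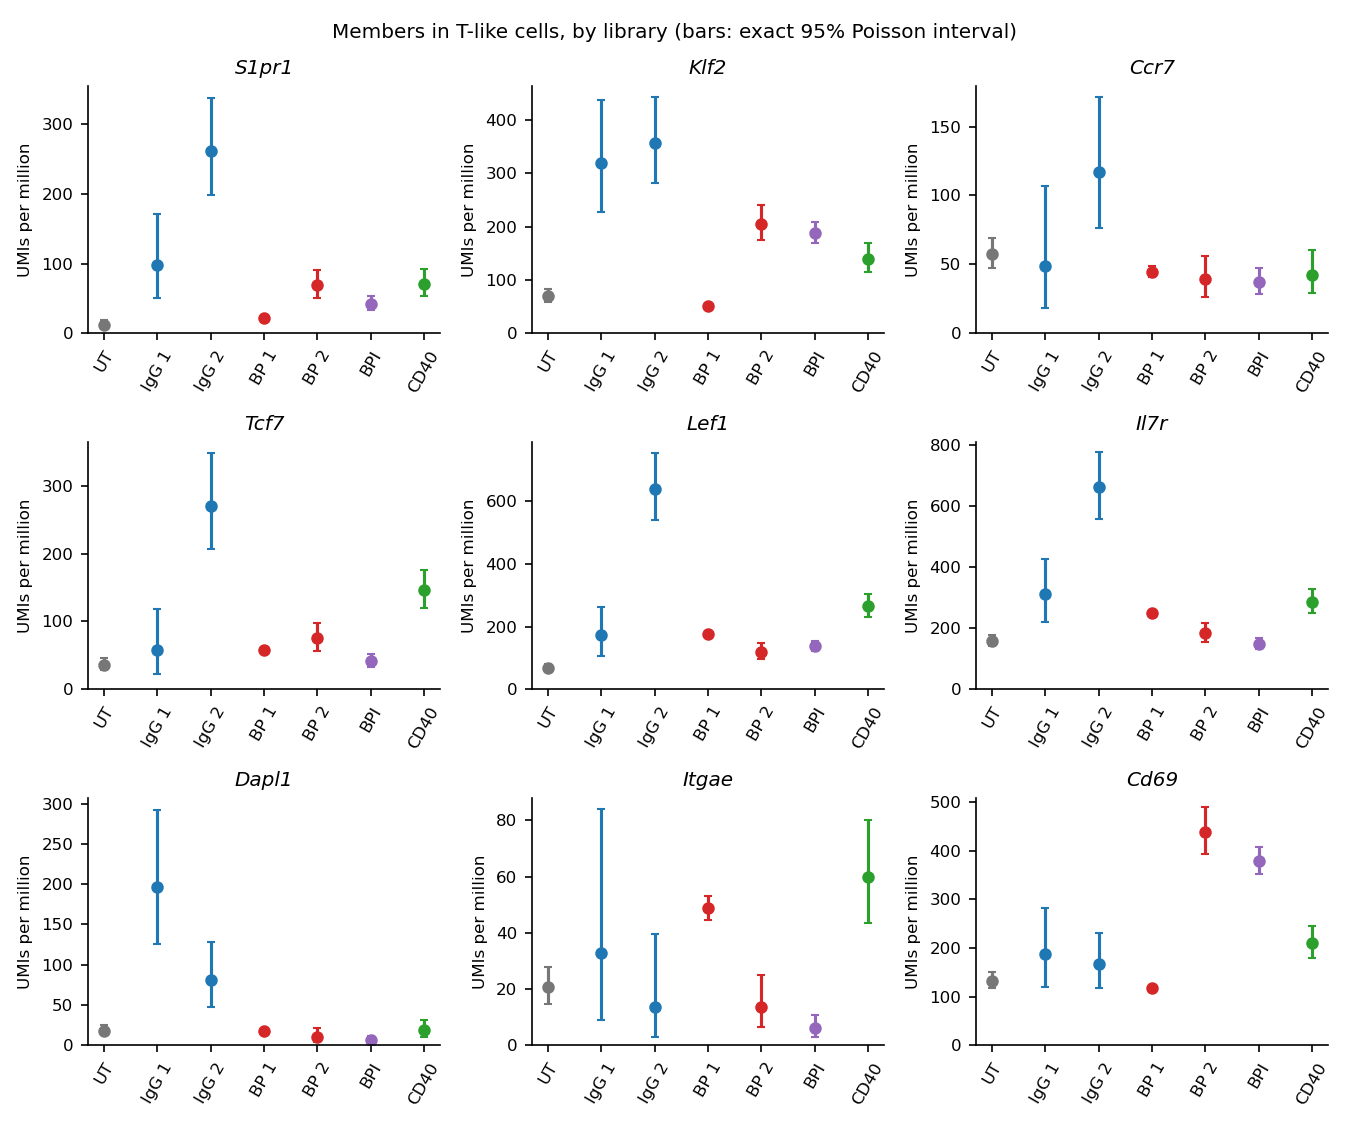
CPM of each of the 9 members (y axis, linear, own scale per gene) in the T-like cells of each library (x axis), with exact 95% Poisson intervals as bars. Both IgG libraries (blue) lie above the other 5 for S1pr1, Klf2, Il7r and Dapl1, while for Tcf7 and Lef1 only IgG 2 stands apart and for Cd69 BP 2 and BPI are highest.

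Put together, 5 of 9 members (S1pr1, Klf2, Ccr7, Il7r and Dapl1) had both BP libraries below both IgG libraries, as had 10.6% of the 9216 genes in the fit. For 4 of 9 (S1pr1, Klf2, Il7r and Dapl1) all 5 other libraries lay below both IgG libraries, as for 5.8% of 9375 genes. Nothing is read from these counts, since the choice of members used that contrast. The log2 difference of BP against IgG, fitted with edgeR over 6 libraries, was -3.37 ± 0.51 (SE) for Dapl1 and -2.28 ± 0.48 for S1pr1, and -1.70 for Lef1, -1.60 for Tcf7, -1.51 for Klf2, -1.39 for Il7r and -1.27 for Ccr7, with standard errors of 0.42 to 0.49. Itgae was at 0.43 ± 0.68 and Cd69 at 0.58 ± 0.46. In that contrast 72 genes (0.781%) had an adjusted p under 0.05. Over the 13 other settings Dapl1 ran from -3.89 to -2.76 and S1pr1 from -3.47 to -1.25, values that only describe the contrast the choice used. Without IgG 2, S1pr1 stood at -1.25, Tcf7 at 0.11 and Lef1 at -0.32. Within the consecutively named libraries IgG 1, BP 2 and BPI, levels were in descending order for S1pr1 (98.3, 68.9 and 42.6 CPM), Dapl1 (197, 10.8 and 6.56), Il7r (311, 184 and 150.2), Klf2, Ccr7 and Itgae. They were not for Tcf7 (57.3, 75.6 and 41.5 CPM), Lef1 (172, 120 and 137) and Cd69 (188, 439 and 379). The IgG 1 levels of Ccr7 and Itgae rest on 6 and 4 UMIs. The share of all genes in that order was not counted, and the choice of members used S1pr1 and Dapl1, so nothing is read from it.

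The other groups share the IgG libraries with that contrast. Of the 7 members tested against IgG in BPI, 0 were called (edgeR quasi-likelihood test, Benjamini-Hochberg over all genes; 56 of 9216 genes called, 0.608%), 5 had an unadjusted p under 0.05, as had 634 of the 9216 genes, and DESeq2 called 0. Nearest was Tcf7, at -2.01 ± 0.57 (adjusted p = 0.0803; 0.00333 to 0.990 over the other settings), followed by Il7r at -1.65 ± 0.55 (adjusted p = 0.213; 0.0132 to 0.900) and Lef1 at -1.55 ± 0.55 (adjusted p = 0.303; 0.0259 to 0.991). Of 12 other settings, 5 called Tcf7, 3 called Il7r and 2 called Lef1. Klf2 was at -0.76 ± 0.54 (adjusted p = 0.907), Ccr7 at -1.17 ± 0.58 (0.722), Itgae at -1.71 ± 0.88 (0.751) and Cd69 at 1.19 ± 0.53 (0.611). In CD40, 0 of 7 were called (0.109% of all genes, 0.0543% higher and 0.0543% lower; 1 at an unadjusted p under 0.05, beside 364 of all 9216 genes; 0 by DESeq2), and all 7 had an adjusted p of 1. Klf2 was at -1.36 ± 0.57, Ccr7 at -1.15 ± 0.61, Il7r at -0.89 ± 0.53, Lef1 at -0.76 ± 0.54, Tcf7 at -0.36 ± 0.53, Cd69 at 0.17 ± 0.56 and Itgae at 1.43 ± 0.74. Dapl1 and S1pr1, not tested, were at -4.22 ± 0.70 and -2.07 ± 0.59 in BPI and at -2.90 ± 0.67 and -1.51 ± 0.59 in CD40.

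Untreated T-like cells stood lowest of the 7 libraries for S1pr1, Tcf7 and Lef1. The IgG libraries they are set against are those of the contrast that the choice of members used. Nothing is therefore read from the count of members called. Against IgG, 3 of 7 tested members fell, where 2.61% of 9375 genes were called, 1.43% higher and 1.18% lower: Lef1 at -2.68 ± 0.58 on the log2 scale (adjusted p = 0.00132), Tcf7 at -2.32 ± 0.57 (adjusted p = 0.00752) and Klf2 at -2.31 ± 0.58 (adjusted p = 0.00936), by the edgeR quasi-likelihood test. Il7r was at -1.69 ± 0.54 (adjusted p = 0.0708; called in 4 of 12 other settings, without BP 1, without BP 2, without its highest cell and without scaling beyond library size). Ccr7 was at -0.67 ± 0.57 (adjusted p = 0.653), Cd69 at -0.45 ± 0.55 (0.775) and Itgae at -0.07 ± 0.78 (0.985), and S1pr1 and Dapl1, not tested, at -3.98 ± 0.66 and -2.90 ± 0.64. The 3 calls ended without IgG 2, where Klf2 was at -2.11 (adjusted p = 0.142), Lef1 at -1.26 (0.562) and Tcf7 at -0.58 (0.834), and with T cells gated on receptor UMIs, where the differences were of similar size (Klf2 -2.33, Lef1 -2.61 and Tcf7 -2.13, adjusted p = 0.373 to 0.427). Over all 12 other settings Klf2 ran from -2.50 to -2.11. The call of Lef1 also ended without cells holding a UMI of another cell type (-1.95, adjusted p = 0.0501). DESeq2 kept only Lef1 (adjusted p = 0.00707; Klf2 0.0759, Tcf7 0.0934). The lone UT, BPI and CD40 libraries were assumed to vary like the replicated groups, and with 1 library each the treatment and the library, the different barcodes of UT included, cannot be told apart.

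Other genes of the same programmes were read from lists beside the members. Of 18 naive and central-memory genes, 0 were called in BP (edgeR), with 1 of 18 above 0 and a median log2 difference of -0.59 against 0.03 over all genes. In BPI 1 fell, Il6ra (interleukin-6 receptor, -4.01 ± 0.77, adjusted p = 0.000671), with a list median of -0.66, and in CD40 0 were called, with a median of -0.28. In UT 4 fell, among them Klf3 (-2.24 ± 0.58, adjusted p = 0.013) and Il6ra (-2.33 ± 0.68, 0.0359), with a list median of -1.31. The 12 activation and inhibitory receptors were above 0 in all 4 contrasts, with medians of 1.64 (BP), 1.68 (BPI), 1.39 (CD40) and 1.91 (UT). In BP 5 of them rose, among them the costimulator Tnfrsf9 (3.02 ± 0.55, adjusted p = 0.000272). The checkpoint receptors Lag3 (edgeR adjusted p = 0.00388) and Havcr2 (5.59e-05) also passed. Lag3 was at 0 and 4.51 CPM in IgG and 131 and 28.4 in BP, and Havcr2 at 0 in both IgG libraries and 121 and 68.9 in BP. Both passed the filter only through libraries other than IgG, where they were high, so their calls and the count of 5 are no support. In BPI 3 rose, and in CD40 0 were called. Havcr2 is among the 3 and again passed the filter only through libraries other than IgG, so its call and that count are no support. In UT 6 rose, among them Pdcd1, encoding PD-1 (4.53 ± 0.62, edgeR adjusted p = 2.27e-08), and Lag3 (4.13e-09), which was at 306 CPM there. Lag3 again passed the filter only through libraries other than IgG, so its call and the count of 6 are no support. Effector genes gave 3 rises of 9 in BP (median 1.37), 5 in BPI (2.96), 0 in CD40 (0.46) and 4 in UT (1.92). Gzmb, encoding granzyme B, rose by 2.81 ± 0.49 in BP (adjusted p = 0.000151), 3.74 ± 0.55 in BPI (1.44e-06) and 3.69 ± 0.56 in UT (6.88e-07), and Ifng, encoding interferon gamma, by 2.18 ± 0.50 in BP (0.0113) and 4.5 ± 0.56 in BPI (1.41e-08). Of 12 residency genes tested, 1 rose in BP, the collagen-binding integrin Itga1 (adjusted p = 0.0192; 0 and 4.51 CPM in IgG, 51.1 and 55.4 in BP), and 0 were called in the other 3 contrasts (edgeR). Of 15 other homing receptors and integrins, Itga1 rose in BP and Cxcr4 fell in UT (-2.53 ± 0.63, edgeR adjusted p = 0.00916). Itga1 too passed the filter only through libraries other than IgG, so its call is no support in either list. Of 13 IL-7 and common-gamma chain genes 1 rose in BP, Il2ra (2.50 ± 0.51, adjusted p = 0.00206), and 0 were called in BPI, CD40 and UT, where Il7r is among the 13. Among markers of other cells in T-like cells, the 10 monocyte and macrophage genes summed to 1106 and 1145 CPM in IgG (7 and 2 of 10 at 0) and 650.1 to 2011 elsewhere. The 7 B-cell genes summed to 115 and 31.6 CPM in IgG (3 and 6 of 7 at 0) and 31.1 to 101 elsewhere, and the 7 microglia genes to 319 and 523 CPM in IgG and 91.5 to 371 elsewhere. The 5 mast or basophil genes were at 0 CPM in IgG 1, 167 in IgG 2 and 0 to 26.9 elsewhere, and the 6 innate lymphoid genes at 524 and 1019 CPM in IgG and 404 to 814 elsewhere. The 11 NK genes summed to 1188 and 595 CPM in IgG and 1343 to 2643 elsewhere, and the 13 T-cell genes to 4710 and 5161 CPM in IgG and 6397 to 8485 elsewhere. The part of these lists in the IgG contrasts was not tested. Without T-like cells holding a UMI of another cell type, Dapl1 was at -2.87 and S1pr1 at -2.05 in BP.

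T-like cells with any UMI of S1pr1, Ccr7, Lef1 or Dapl1 (called here cells with a recirculation transcript) were counted in each library. They made up 43.6% (17 of 39 cells, interval 27.8 to 60.4) and 69.0% (40 of 58, 55.5 to 80.5) of T-like cells in IgG, 58.9% and 36.6% in BP, 36.3% in BPI, 58.1% in CD40 and 36.3% in UT. With every cell thinned to 1000 UMIs these shares were 33.3% and 53.4% in IgG, 22.2% and 22.5% in BP, 18.8% in BPI, 29.5% in CD40 and 18.7% in UT. As counted, the deep BP 1 library lay above IgG 1, and no order between those libraries is read from the unthinned share. The split uses S1pr1 and Dapl1, which the choice of members used, so nothing is read from its order by group. As a share of all cells of a library such cells were 0.286% and 0.534% in IgG, 7.91% and 1.45% in BP, 3.25% in BPI, 0.965% in CD40 and 1.84% in UT. Any of the 9 members was found in 79.5% and 96.6% of T-like cells in IgG, 89.3% and 82.8% in BP, 82.9% in BPI, 93.0% in CD40 and 78.8% in UT, and, at 1000 UMIs, in 61.5% and 86.2%, 49.8% and 60.8%, 57.1%, 69.0% and 41.4%. S1pr1 and Lef1 occurred in the same cell in 12.8% and 37.9% of IgG T-like cells, 8.26% and 5.29% in BP, 5.88% in BPI, 16.3% in CD40 and 4.03% in UT. At 1000 UMIs per cell that share was 5.13% and 12.1% in IgG (2 and 7 cells), 1.77% and 1.76% in BP, 1.85% in BPI, 4.65% in CD40 and 0.366% in UT, so that IgG 2 stood highest and IgG 1 near CD40.

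**Figure D2:**
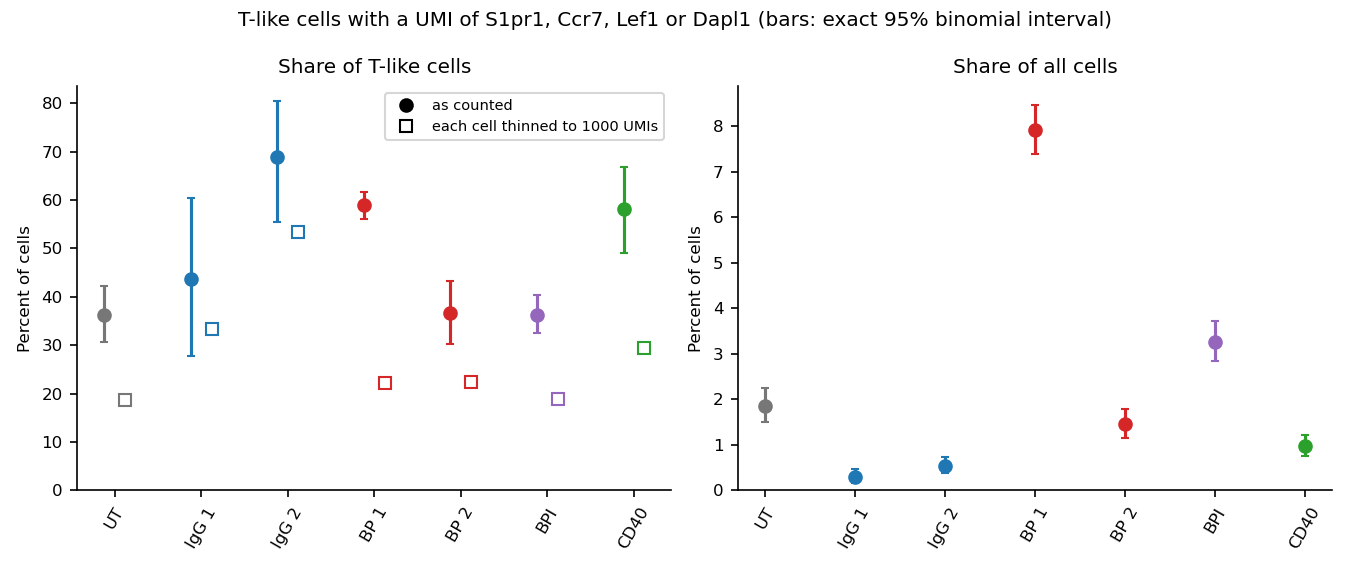
Left, percent of T-like cells in each library with a UMI of S1pr1, Ccr7, Lef1 or Dapl1, as counted (filled, exact 95% binomial interval) and with each cell thinned to 1000 UMIs (open squares). Right, the same cells as a percent of all cells of the library, where BP 1 is at 7.91% and the IgG libraries at 0.286% and 0.534%.

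Within a library, T-like cells with a recirculation transcript were compared with those without, using library as a block (7 libraries, 160 of 7495 genes called, 2.13%). The 4 genes of the split had no test. Of the 5 other members, 2 rose, as did 0.947% of all genes: Tcf7 by 1.57 ± 0.16 on the log2 scale (adjusted p = 1.95e-08, edgeR quasi-likelihood test) and Klf2 by 1.11 ± 0.13 (adjusted p = 3.38e-07), each in 7 of 7 libraries. Tcf7 was at 330 CPM in such cells and 157 in the others in IgG 2, 76.2 and 22.8 in BP 1, and 77.3 and 10.2 in UT. Il7r was at 0.43 ± 0.14 (adjusted p = 0.118; higher in 6 of 7 libraries) and was called in 3 of 10 other settings (adjusted p = 0.000365 to 0.456), at 0.93 when thinned. Itgae was at -0.39 ± 0.20 (adjusted p = 0.528) and Cd69 at -0.05 ± 0.13 (adjusted p = 0.990). With every cell thinned to 1000 UMIs before the split, Tcf7 stood at 1.75 and Klf2 at 1.30, both called, and both were called in all 10 other settings. DESeq2 called the same number of these 5 members, 2.

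Naive and central-memory genes went with the split. Of 18 tested, 11 rose and 0 fell (median 0.65, all genes 0.00), among them Bach2, a repressor of effector genes, by 1.11 ± 0.15 (adjusted p = 9e-06), and Igfbp4 (adjusted p = 5.95e-07), with 167 UMIs in cells with a transcript and 8 in cells without. Cells without a transcript held 0 Igfbp4 UMIs in UT, CD40 and both IgG libraries, so no fold is given. Igfbp4 passed the filter through the cells with a transcript, where it was high, so its call and the count of 11 are no support. Effector genes went the other way: 6 of 9 fell and 0 rose (median -0.64), among them the chemokines Ccl5 (-0.74 ± 0.12, adjusted p = 0.000243) and Ccl3 (-0.97 ± 0.18, 0.00126) and the granule gene Nkg7 (-0.53 ± 0.10, 0.00148). Of 12 activation and inhibitory receptors 3 fell (Havcr2, Lag3 and Icos; median -0.42), and of 11 residency genes tested 4 fell (median -0.40), led by the chemokine receptor Cxcr6 (-0.91 ± 0.12, adjusted p = 2.39e-06), Rgs1 (-0.54 ± 0.11, 0.003) and Prdm1 (-0.75 ± 0.19, 0.0293). Of 15 homing receptors and integrins, Cxcr6 and Ccr2 (-0.53 ± 0.13, adjusted p = 0.0181) fell and 0 rose, and of 13 IL-7 and common-gamma chain genes 1 fell, Cish (-0.65 ± 0.15, 0.0089). The cells with a transcript also held a different mix of gates: ungated cells were a larger share of them than of the rest in 6 of 7 libraries, such as 39.4% and 21.3% in UT, 57.5% and 44.4% in IgG 2 and 33.7% and 32.6% in BP 2, and a smaller one in CD40 (29.3% and 44.4%). CD8-gated cells were a smaller share of them in UT (14.1% and 22.4%), IgG 1 (29.4% and 31.8%) and IgG 2 (12.5% and 44.4%). The same held in BP 2 (43.4% and 54.9%) and BPI (51.85% and 61.21%). They were a larger share in BP 1 (39.7% and 36.4%) and CD40 (41.3% and 40.7%). The part of that mix in these differences was not tested.

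**Figure D3:**
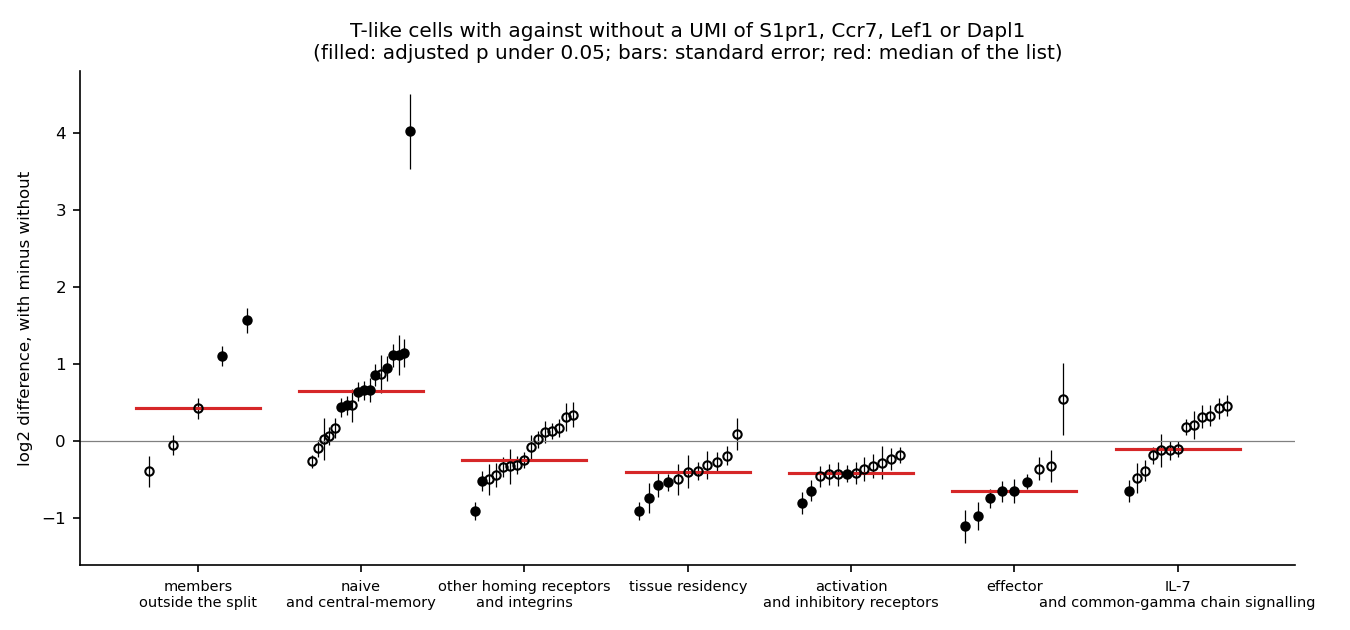
Log2 differences (y axis) between T-like cells with and without a UMI of S1pr1, Ccr7, Lef1 or Dapl1, 1 point per gene with its standard error, by gene list (x axis), filled where the adjusted p is under 0.05 and with the list median in red. Tcf7 (1.57) and Klf2 (1.11) are the filled members, and filled points lie above 0 in the naive and central-memory list and below 0 in the effector list.

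T-like cells were next split by UMIs of Cd8a or Cd8b1, Cd4 and Foxp3 into CD8-gated (1087 cells), CD4-gated without Foxp3 (512 cells in the 6 libraries with at least 10) and Foxp3-gated cells (288 in 4 libraries); the rest stayed ungated. CD8-gated and CD4-gated cells of the same library were compared in 6 libraries, leaving out IgG 1, which had 6 CD4-gated cells (475 of 7179 genes called, 6.62%). Among the 9 members 4 were called, 3 lower (3.89% of all genes) and 1 higher (2.73%). The higher one, Dapl1, had 177 CD8-gated and 23 CD4-gated UMIs, most of them in BP 1, so the count of called members is no support. In CD8-gated cells S1pr1 was lower, at -1.08 ± 0.30 (adjusted p = 0.0233, edgeR quasi-likelihood test), as was Ccr7 at -1.15 ± 0.27 (0.00608), both in 6 of 6 libraries, and the cytokine receptor Il7r at -0.93 ± 0.25 (0.0177) in 5 of 6. S1pr1 was at 123 and 369 CPM (CD8 and CD4) in IgG 2, 16.0 and 18.2 in BP 1, 31.2 and 166 in BP 2, 20.5 and 80.9 in BPI, 66.4 and 172 in CD40 and 4.26 and 5.83 in UT. In CD40, 11 of the 17 CD4-gated UMIs were in 1 cell, and without the highest cell of each gate the levels were 46.4 and 78.1 CPM. Ccr7 was at 88.0 and 143 CPM in IgG 2, 24.9 and 77.8 in BP 1, and 33.4 and 89.1 in BP 2. Tcf7 was at -0.90 ± 0.31 (adjusted p = 0.0908), Lef1 at -0.45 ± 0.23 (0.367) and Klf2 at -0.32 ± 0.24 (0.627).

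Dapl1 was the called member that was higher in CD8-gated cells, by 1.97 ± 0.58 (adjusted p = 0.0344), in 4 of 6 libraries and with most of its UMIs in BP 1 (146 CD8-gated, 7 CD4-gated). In IgG 2 the order was the other way, with 2 CD8-gated and 7 CD4-gated UMIs. DESeq2 gave 0.67 (adjusted p = 0.992) for Dapl1, and of the 4 calls kept S1pr1 (0.0259), with Ccr7 at 0.0725 and Il7r at 0.0928. Leaving out single libraries ended the call of S1pr1 in 4 of 6 cases (without BP 2, BPI, CD40 or IgG 2, adjusted p = 0.0539 to 0.123), of Il7r in 3 (without BP 1, BP 2 or BPI, 0.0754 to 0.166) and of Ccr7 in 1 (without BP 1, 0.397), while their direction held in each. Dapl1 failed the filter without UT or BP 1 and was at an adjusted p of 0.0629 without BP 2. Itgae (0.94 ± 0.45, adjusted p = 0.299) and Cd69 (0.28 ± 0.21, 0.627) were not called. Of 18 naive and central-memory genes 16 passed the filter, 3 higher (among them Cd27, 1.62 ± 0.23, and Ltb, 0.63 ± 0.14) and 2 lower (among them Il6ra, -2.52 ± 0.42). Effector genes were higher in 6 of 9, with Gzmb at 3.37 ± 0.20. At least 1 of these 6 was at 13.5 CPM or less in CD4-gated cells of every library. It passed the filter through the CD8-gated side, where it was high, so the count of 6 is no support. Activation receptors were lower in 5 of 12, with Tnfrsf4 at -3.06 ± 0.28. Homing receptors gave 3 higher and 1 lower of 15, with Cxcr4 at -1.32 ± 0.31, and the IL-7 list 0 higher and 2 lower of 13.

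Foxp3-gated cells, which carry the factor that defines regulatory T cells, were set against CD4-gated cells of the same library in UT, BP 1, BPI and CD40 (130 of 4112 genes called, 3.16%; 8 of 9 members passed the filter). Of the 8, 1 was lower (1.24% of all genes) and 1 higher (1.92%). Tcf7 fell by 3.15 ± 0.37 on the log2 scale (adjusted p = 0.00212, edgeR) in 4 of 4 libraries, at 7.89 against 26.8 CPM in UT, 8.10 against 65.6 in BP 1, 11.3 against 189 in BPI and 14.8 against 223 in CD40. Its Foxp3-gated levels rest on 2, 14, 1 and 1 UMIs in that order, so that only BP 1 held more than 3. Itgae was higher by 3.48 ± 0.38 (adjusted p = 0.00146) in 4 of 4 libraries, at 43.4 against 10.5, 192 against 12.5, 33.9 against 13.5 and 340 against 10.1 CPM in the same order. Those levels rest on 11 against 9, 332 against 33, 3 against 1 and 23 against 1 UMIs, most of them in BP 1. Itgae passed the filter through the Foxp3-gated side, where it was high, and Tcf7 through the CD4-gated side, where it was high. The count of called members is therefore no support. With no filter on low counts Itgae was at 3.46, and DESeq2, run without that filter, gave 3.22 (adjusted p = 0.000316). Lef1, the partner of Tcf7, was at -0.63 ± 0.22 (adjusted p = 0.188), and S1pr1 (0.05 ± 0.49), Klf2 (-0.02 ± 0.38) and Ccr7 (-0.45 ± 0.35) were not called. Cd69 was at 0.65 ± 0.28 (adjusted p = 0.338) and Il7r at 0.53 ± 0.35 (0.628), each higher in 3 of 4 libraries and called in 1 of 6 other settings, without BPI (adjusted p = 0.0205 and 0.0458). Dapl1 was at 0 UMIs in all Foxp3-gated cells of these libraries (0 of 288 cells, 16 UMIs in their CD4-gated cells). Leaving out BP 1 ended the call of Tcf7 (-3.22, adjusted p = 0.157) and dropped Itgae below the filter. Of the naive list 1 rose, Cd27 (1.79 ± 0.28), and 2 fell, Bach2 (-2.08 ± 0.38) and Bcl2 (-1.79 ± 0.42), of 12 tested; of 11 activation receptors 4 rose, led by Ctla4 (1.49 ± 0.24), and Gzmb was higher by 2.46 ± 0.29. Cd8a, at 0 in CD4-gated cells by the gate's rule, was at 82.8 CPM in Foxp3-gated cells of UT, 45.7 in BP 1, 102 in BPI and 29.5 in CD40, and its part in these differences was not tested. The E-cadherin gene Cdh1, whose product CD103 binds, was, pooled over libraries, at 0.551 CPM in tumour-like cells, 76.1 in monocyte/macrophage-like cells (1.23 to 143 by library, median 5.87), 224 in plasmacytoid dendritic-like cells and 742 in 43 mast or basophil-like cells, of which 1 library held at least 20.

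**Figure D4:**
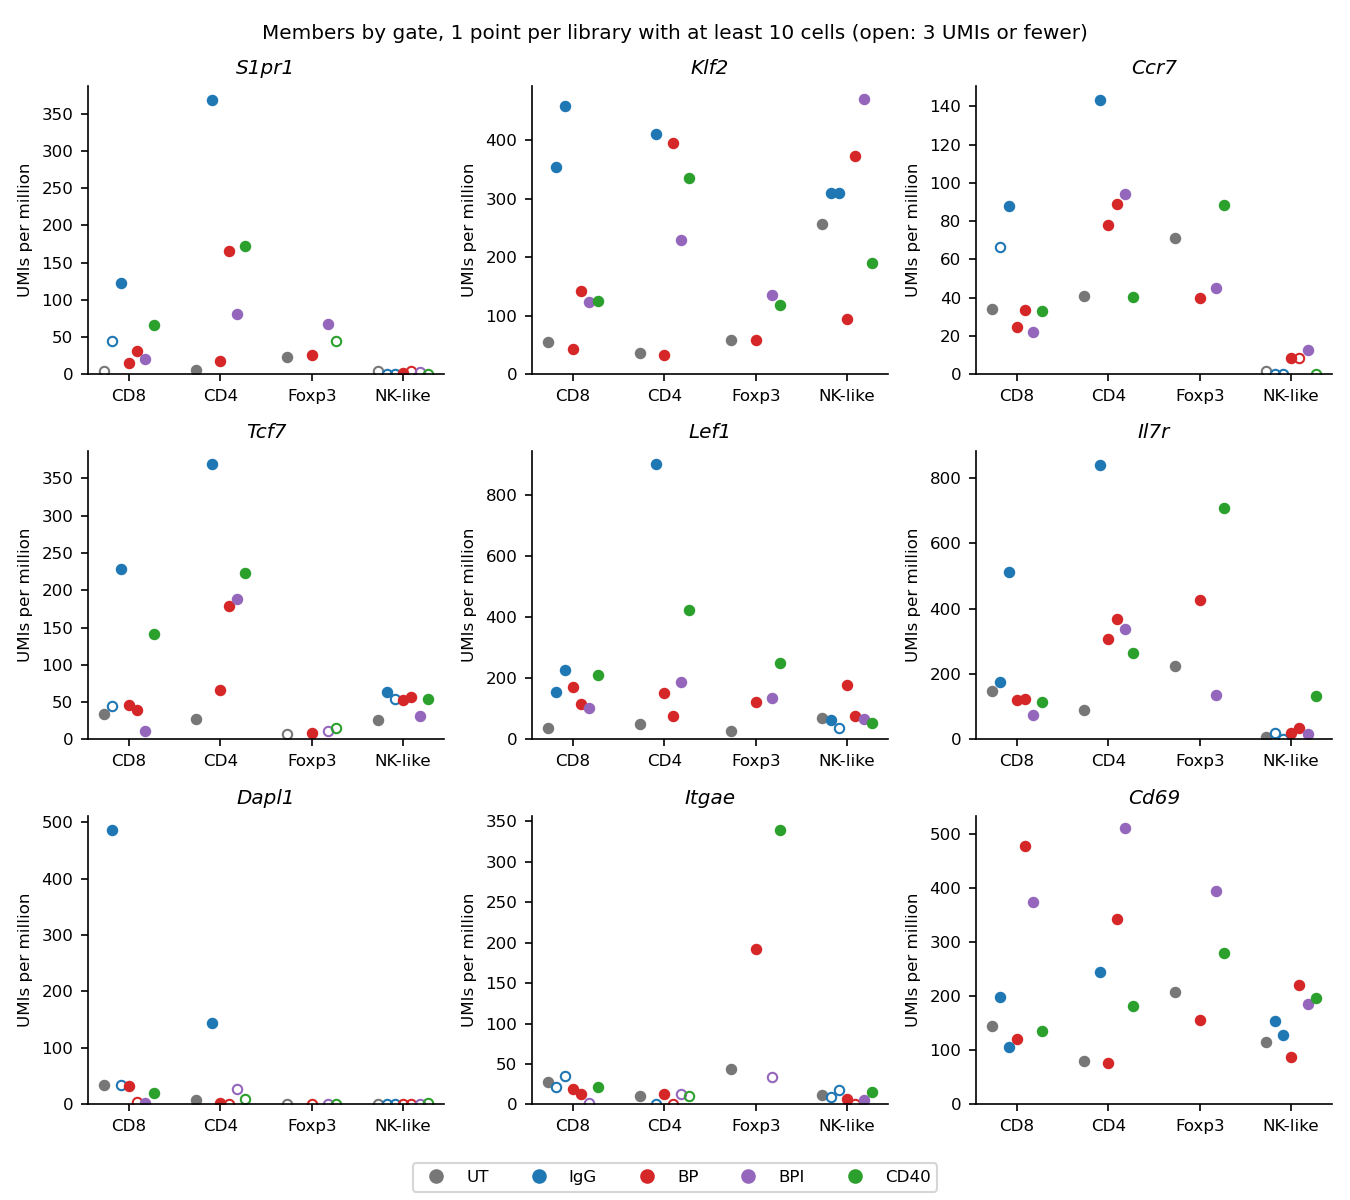
CPM of each member (y axis, linear, own scale) in CD8-gated, CD4-gated, Foxp3-gated and NK-like cells (x axis), 1 point per library with at least 10 cells, coloured by group and open where the level rests on 3 UMIs or fewer. S1pr1, Ccr7 and Dapl1 are near 0 in NK-like cells, Itgae is highest in Foxp3-gated cells and Tcf7 lowest there among the T-cell gates.

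By group, the gates were not tested, since IgG held 12 and 13 CD8-gated, 6 and 13 CD4-gated and 2 and 1 Foxp3-gated cells, under the minimum of 20 cells set for such a fit. In CD8-gated cells Klf2 was at 354 and 458 CPM in IgG and at 143 or less in the other 5 libraries, and Il7r at 177 and 511 against 149 or less. The Il7r level of IgG 1 rests on 8 UMIs and was 100.4 CPM without its highest cell, below the level of UT, BP 1 and BP 2 treated the same way (127, 116 and 114). Dapl1 in CD8-gated cells was at 486 CPM in IgG 1, from 22 UMIs that include the cell with 17, 35.2 in IgG 2 (2 UMIs), 32.8 in BP 1, 4.46 in BP 2, 3.16 in BPI, 19.4 in CD40 and 34.1 in UT. Apart from IgG 1, the CD8-gated libraries therefore did not order by group for Dapl1. In CD4-gated cells Dapl1 was at 138 and 143 CPM in IgG from 2 and 7 UMIs, and at 0 to 27.0 elsewhere. Both UMIs of IgG 1 were in 1 cell. Without the highest cell of each library, Dapl1 was at 0 CPM in IgG 1, 89.5 in IgG 2 and 0 to 13.8 elsewhere. S1pr1 in CD4-gated cells was at 138 and 369 CPM in IgG, 18.2 and 166 in BP, 80.9 in BPI, 172 in CD40 and 5.83 in UT, where IgG 1 (2 UMIs) lay below BP 2 and CD40. In CD40, 11 of the 17 UMIs were in 1 cell. Without the highest cell of each library, IgG 1 was at 82.2 CPM, above CD40 (78.1) and still below BP 2 (105). The gates took unequal parts of the T-like cells: CD8-gated cells were 30.8% and 22.4% in IgG, 38.3% and 50.7% in BP, 57.8% in BPI, 41.1% in CD40 and 19.4% in UT. Ungated cells were 48.7% and 53.4% in IgG, 20.6% and 33.0% in BP, 33.3% in BPI, 35.7% in CD40 and 27.8% in UT. In these ungated cells S1pr1 was at 141 and 298 CPM in IgG, 43.5 and 116 in BP, 99.8 in BPI, 40.1 in CD40 and 30.1 in UT. Their part in the T-like differences was not tested.

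NK-like cells held many UMIs of some of the 9 genes and few of others. Klf2 had a median of 310 CPM over the 7 libraries (95.1 to 470.2), Lef1 67.6 (36.5 to 180), Tcf7 53.8 (25.7 to 63.9) and Cd69 155 (87.7 to 221). S1pr1 had 10 UMIs in 1125 NK-like cells (0 to 4.34 CPM), Dapl1 2 UMIs, Ccr7 35 (0 to 12.7 CPM) and Itgae 36 (0 to 18.2 CPM). Il7r was at 133 CPM in CD40 and 0 to 34.7 elsewhere. BP and IgG were compared in 1 fit of IgG 1, both BP libraries, BPI and CD40, each with at least 20 NK-like cells, where 0 of 6210 genes were called (0%; 266 at an unadjusted p under 0.05; 0 by DESeq2) and 5 of 9 members passed the filter. Lef1 was at 1.05 ± 0.67 (adjusted p = 0.992), Klf2 at -0.45 ± 0.69 (0.992), Tcf7 at -0.29 ± 0.67 (0.992), Il7r at 0.33 ± 1.06 (0.993) and Cd69 at -0.10 ± 0.64 (0.996). IgG was 1 library in that fit, so the spread came from the 2 BP libraries only, and the lack of calls is not read as a lack of difference. Adding IgG 2, with 16 NK-like cells, gave 19 called genes.

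Genes with the pattern most like S1pr1 and Dapl1 were ranked by Pearson's r of log2(CPM + 10) over 24 pairs of library and class, among 6165 genes. The classes were CD8-gated, CD4-gated, Foxp3-gated and NK-like cells. S1pr1 was near 0 in NK-like cells (0 to 4.34 CPM) while Klf2 was not (95.1 to 470.2). The r values therefore mix the difference between T and NK-like cells with that among T cells, and are not read for T cells alone. For S1pr1 they were Slamf6, an immune receptor of memory-like T cells (r = 0.895), Gpr183, a chemotactic receptor (0.832), and Trib2 (0.808); the pairs share libraries and depth. Of the other members Ccr7 was nearest (0.807), then Il7r (0.763) and Lef1 (0.738), while Klf2 was at 0.282 and Itgae at 0.02. For Dapl1 the nearest were ribosomal protein genes, Rpl23 (0.843), Rps16 (0.830) and Rps9 (0.828), and S1pr1 was at 0.437.

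Outside T and NK cells the members marked other populations. The cluster led by Igfbp7, Cldn5 and Rgs5, with all 6 endothelial and all 5 mural markers raised (788 cells), had S1pr1 at 149 CPM, Klf2 at 303 and Lef1 at 285, and it also held the Ccr7 ligands Ccl19 (122 CPM) and Ccl21a (242 CPM). Astrocyte-like cells had S1pr1 at 83.7 CPM and Plpp3, a lipid phosphatase that degrades S1P, at 409. B-like cells (183) had Ccr7 at 71.0 CPM and Cd69 at 331 but 0 Dapl1 UMIs. In 35842 tumour-like cells Ccr7 was at 0.163 CPM, Il7r at 0.193, Dapl1 at 0.551 and Cd69 at 0.308, while Klf2 was at 88.4 and Tcf7 at 21.9. The cytokine IL-7 transcript was at 1.88 CPM in the cluster led by Igfbp7, Cldn5 and Rgs5 and at 0.949 or less elsewhere.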

How the data were processed

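Single-cell RNA was counted in 7 libraries of whole tumours. The authors deposited raw UMI counts (genes by barcodes) on mm10; per the file headers the software was Cell Ranger 4, while the submitters' processing notes name Cell Ranger 7.0.1. The members and gene lists were chosen with earlier results of these data known. Kept barcodes had 1000 or more UMIs, 500 or more genes and no more than 15% of UMIs from mitochondrial genes, and the cells with the highest Scrublet scores, 0.8% per 1000 cells, were removed as doublets. Cells were clustered with scanpy 1.11.5 (2000 variable genes, 30 components, 15 neighbours, Leiden resolution 1) and named from fixed markers. Within T-like cells, gates used UMIs of Cd8a, Cd8b1, Cd4 and Foxp3.

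Sums of UMIs over the cells of a class in a library were tested with edgeR 4.0.16 (filterByExpr, TMM, quasi-likelihood test, Benjamini-Hochberg over all genes, adjusted p under 0.05), with DESeq2 1.42.0, other filters, scaling, gates and left-out libraries as alternatives. The fit for BP, BPI and CD40 held 6 libraries and that for UT all 7; comparisons within libraries used library as a block. The scripts were tested on simulated data. All 9 members are named, and from each list up to 3 genes with the smallest adjusted p under 0.05. One gene that this rule names is not reported here. The genes used to estimate free RNA were chosen after their values were seen.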

Additional observations from a re-analysis of the deposited data

Results flagged for a closer look

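In BPI and UT a member stood on opposite sides of both IgG libraries in T cells and in NK-like cells, counting members with more than 3 UMIs in at least 1 library of each group. That minimum left out members near 0 in the NK-like cells of IgG, such as Il7r in CD40, which was at 287.2 CPM in T-like cells (IgG 311.2 and 662.6) and at 132.9 in NK-like cells (IgG 18.2 from 2 UMIs, and 0). These differences were not tested, and BPI and UT are 1 library each. Klf2 in BPI was at 188.5 CPM in T-like cells (IgG 319.4 and 356.1) and at 123.9 in CD8-gated cells (IgG 353.8 and 457.9), but at 470.2 in NK-like cells (IgG 310.2 and 310.3). Lef1 in BPI was at 137.1 CPM in T-like and 103.4 in CD8-gated cells, below both IgG libraries, and at 67.6 in NK-like cells, above them (63.9 and 36.5). Lef1 in UT was at 68.4 CPM in T-like and 38.4 in CD8-gated cells, below both IgG libraries, and at 71.1 in NK-like cells, above them. The IgG 2 value in NK-like cells rests on 16 cells and 2 Lef1 UMIs.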

How the results depend on the processing

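The IgG contrasts rest on 39 and 58 T-like cells, where a count of 0 allows 24.6 and 13.5 CPM. Leaving out 1 library at a time, called genes ranged from 9 to 248 (BP against IgG), 8 to 132 (BPI), 3 to 23 (CD40), 59 to 466 (UT), 1 to 86 (NK-like), 117 to 470 (CD8-gated against CD4-gated), 2 to 394 (Foxp3-gated against CD4-gated) and 109 to 155 (with against without a transcript). The NK-like fits that leave out a library included IgG 2, a choice made after seeing the data, since otherwise no residual degrees of freedom remained; including it gave 19. With DESeq2 the counts were 14 (BP), 18 (BPI), 0 (CD40), 89 (UT), 213 (CD8 against CD4) and 97 (with against without). With no filter on low counts they were 114 (BP), 19 (CD40), 725 (CD8 against CD4) and 459 (Foxp3 against CD4). T cells gated on receptor UMIs gave 24, 0, 1 and 4 for BP, BPI, CD40 and UT, and cells of at least 2000 UMIs gave 112, 87 and 18 for BP, BPI and CD40. Leaving out cells with a UMI of another type gave 18 (CD40) and 113 (UT), subtracting free RNA 1 (CD40), and thinning 73 (CD8 against CD4). Without scaling beyond library size BP gave 114, and the median of all genes moved from 0.03 to 0.24. Without each gene's highest cell, chosen after seeing the data, BP gave 96. The cause of these changes was not tested.

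Among tested member differences the direction turned for 9, none of them called in the fit as reported. In BP against IgG, where members had no test, Tcf7 was at 0.11 without IgG 2, Cd69 at -0.94 without BP 2, and Itgae at -0.61 without BP 1 and -0.14 without IgG 2. Leaving out 1 library at a time, Tcf7 in CD40 ranged from -1.04 to 1.34, Lef1 in CD40 from -1.42 to 0.62 and Ccr7 in UT from -1.15 to 0.30, each highest without IgG 2. Itgae in UT ranged from -0.60 (without IgG 2) to 0.48 (without IgG 1) and was at 0.045 with no filter, 0.16 by the receptor gate and 0.69 without its highest cell. In NK-like cells Cd69 was at 0.0040 (DESeq2), 0.0046 (IgG 2 included), and ranged from -0.78 to 0.72 without single libraries, as did Klf2 from -1.76 (called without BP 2, adjusted p = 0.0292) to 0.38 and Tcf7 from -0.25 to 0.11. Klf2 in Foxp3-gated against CD4-gated cells ranged from -0.55 (without BP 1) to 0.41 (without CD40). Cd69 in cells with against without a transcript was at 0.029 with DESeq2 and ranged from -0.20 to 0.093. At 2000 UMIs, with shallower cells left out, any of 9 members was found in 58.0% (UT), 67.9% (IgG 1), 84.9% (IgG 2), 68.2% (BP 1), 75.0% (BP 2), 72.6% (BPI) and 81.2% (CD40) of T-like cells, where IgG 1 lay below both BP libraries, and any of the 4 transcripts in 33.9% (BP 1) and 27.4% (BPI). With the replicate number as a block over IgG and BP, 5 of 6240 genes were called in T-like cells (S1pr1 -2.23, Dapl1 -3.53) and 9 of 3245 in NK-like cells; same-numbered libraries share only a number (r = -0.0854 of their deviations over 6240 genes). The thinned Foxp3-gated comparison was not run, because too few libraries kept 10 cells in both gates.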
